A study of Rattus norvegicus with 2 samples.

Results

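The epithelial keratins of rat lung were examined through 9 genes, *Krt5*, *Krt7*, *Krt8*, *Krt10*, *Krt13*, *Krt14*, *Krt15*, *Krt18* and *Krt19*. The probe sets chosen were those that are no controls and whose platform annotation gives exactly 1 gene symbol, when that symbol is one of these. Each of the 9 genes had 1 such probe set, so the keratins made up 9 of 31042 probe sets and 9 of 14217 genes. Total RNA from rat lung was hybridised to 2 Affymetrix Rat Genome 230 2.0 arrays, 1 per experimenter, under a study title that asks how reproducible global expression is. The arrays are called those of experimenter 2 and experimenter 1, after the numbers in their titles. Both are labelled only as lung of *Rattus norvegicus*; the labels used here give no strain, sex, age, genotype or treatment, and do not say whether both experimenters used the same animal or the same RNA. Each value is an RMA value on a log2 scale, so a difference of 1 is 2-fold.

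Keratins are the intermediate filament proteins of epithelial cells. A type I keratin pairs with a type II keratin to form the filament, which is anchored to neighbouring cells at desmosomes and to the basement membrane at hemidesmosomes. *Krt8* and *Krt18* are the pair of simple epithelia, with *Krt7* and *Krt19* found in many glandular and ductal epithelia, and in lung these simple keratins occur in airway and alveolar epithelial cells and also in mesothelium. *Krt5* and *Krt14* are the pair of the basal layer of stratified and pseudostratified epithelia, where *Krt15* also occurs, while *Krt10* and *Krt13* belong to the layers above it, *Krt10* in epidermis and *Krt13* in internal squamous epithelia such as that of the oesophagus. Of the 9 genes, 6 are type I (*Krt10*, *Krt13*, *Krt14*, *Krt15*, *Krt18*, *Krt19*) and 3 are type II (*Krt5*, *Krt7*, *Krt8*).

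RefSeq promoter windows of assembly GRCr8 were matched for 4 of the 9 genes, *Krt8*, *Krt18*, *Krt5* and *Krt10*; those of *Krt7*, *Krt13*, *Krt14*, *Krt15* and *Krt19* are named only. The bases before the annotated start are shown for the pair with strong signal on both arrays, *Krt8* and *Krt18*, and for a basal and a suprabasal keratin with weak or middling signal, *Krt5* and *Krt10*. Capitals mark matches, on either strand, to 3 motifs searched: TATAAA, an element found close to the start of many genes, TGANTCA, bound by AP-1 factors, and GGGCGG, bound by Sp1 and related factors.
*Krt8*, chr7:135010418-135010589, strand minus: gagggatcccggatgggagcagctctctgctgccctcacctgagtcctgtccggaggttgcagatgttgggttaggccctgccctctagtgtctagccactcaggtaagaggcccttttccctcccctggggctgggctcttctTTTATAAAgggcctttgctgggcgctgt
*Krt18*, chr7:135035918-135036167, strand plus: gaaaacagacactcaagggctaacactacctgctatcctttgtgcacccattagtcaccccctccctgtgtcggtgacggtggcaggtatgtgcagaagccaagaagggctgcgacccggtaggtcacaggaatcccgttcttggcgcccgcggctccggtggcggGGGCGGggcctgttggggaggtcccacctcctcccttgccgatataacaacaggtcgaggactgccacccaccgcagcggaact
*Krt5*, chr7:134730570-134730819, strand minus: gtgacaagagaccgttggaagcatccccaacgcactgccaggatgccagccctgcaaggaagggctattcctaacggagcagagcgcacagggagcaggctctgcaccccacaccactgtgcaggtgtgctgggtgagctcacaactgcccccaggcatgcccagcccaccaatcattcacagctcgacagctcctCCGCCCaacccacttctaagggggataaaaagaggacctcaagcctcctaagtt
*Krt10*, chr10:84839161-84839410, strand minus: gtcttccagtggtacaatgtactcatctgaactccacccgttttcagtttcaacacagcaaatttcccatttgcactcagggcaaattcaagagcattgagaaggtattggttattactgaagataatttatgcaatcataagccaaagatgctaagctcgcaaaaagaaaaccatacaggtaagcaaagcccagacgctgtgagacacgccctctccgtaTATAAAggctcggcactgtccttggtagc
The run for *Krt8* is cut 20 bases after its TATAAA.

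In windows of 300 bases, from 250 before to 50 after the annotated start, TATAAA occurred in *Krt8* and *Krt10* and in 14.2% of the 33469 promoters of the table. In *Krt10* it began 29 bases before the annotated start. In *Krt8* it began 104 bases before and overlapped a match on the other strand, but the annotated start of *Krt8* falls on an ATG that reads as its start codon, so these distances of *Krt8* and *Krt10* are not comparable. GGGCGG occurred in *Krt18* and *Krt5*, against 33.1% of all promoters, and TGANTCA, found in 7.33% of all promoters, occurred among the 4 only in *Krt8*, where it lies just past that ATG and so probably in coding sequence. The GC content was 59.0% in *Krt8*, 60.3% in *Krt18* and 60.7% in *Krt5*, all above the median of 51.7% over all promoters, and 45.3% in *Krt10*. TATAAA and GGGCGG were each held by 1 simple keratin and 1 of the others. These matches describe letters in the window, and no factor binding was measured.

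The gene order of the same assembly places the type I keratins *Krt13*, *Krt15* and *Krt19* next to each other and *Krt18*, alone of the type I genes examined, next to its type II partner *Krt8*. As described next, the neighbours *Krt19*, *Krt15* and *Krt13* gave the highest signal of the 9, a signal at the middle of the array and one below its lower quartile.

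The 4 simple keratins gave strong signal on both arrays and the 5 basal and squamous keratins gave signal at or below the middle of each array. The median of the simple keratins was 10.52 on the array of experimenter 2 and 10.64 on that of experimenter 1, and the median of the basal and squamous keratins was 4.50 on that of experimenter 2 and 4.50 on that of experimenter 1. The gap between the medians of the groups' mean levels was 6.08 on the log2 scale. All 4 simple keratins lay above the upper quartile of each array (8.18 for experimenter 2 and 8.22 for experimenter 1), and no basal or squamous keratin reached, by its mean of both arrays, the median of the means of all 31042 (6.31). By the probe set with the highest mean of each gene, 9558 of all 14217 genes reached that median. Probe sets differ in how strongly they respond to the same amount of RNA, so this order is one of signals and not of RNA amounts. In bulk lung, fewer cells of a type and less RNA per cell cannot be told apart.

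**Figure D1:**
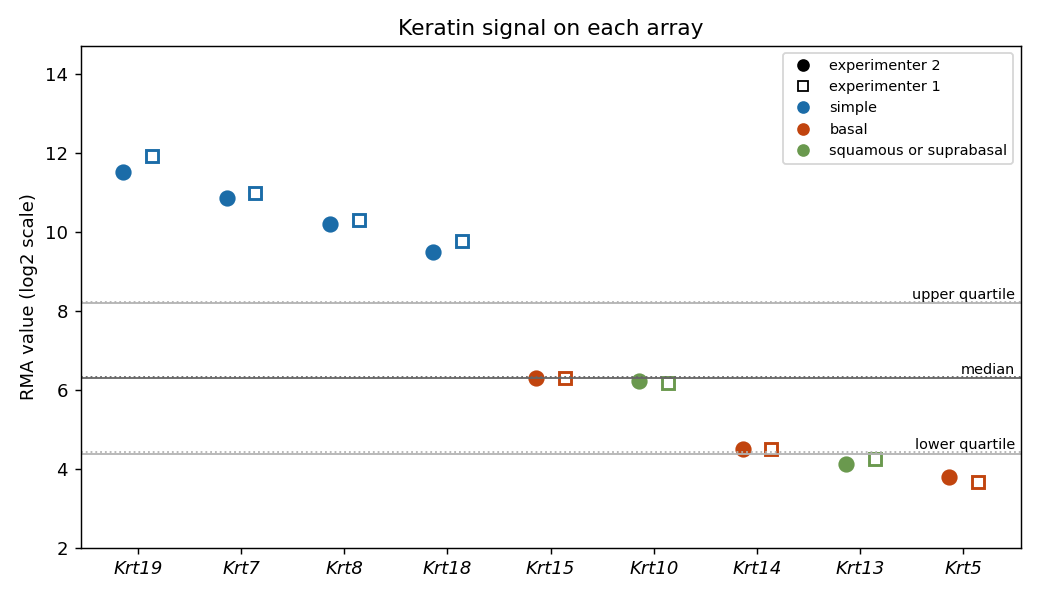
RMA value (log2 scale) of each keratin on the array of experimenter 2 (filled circles) and of experimenter 1 (open squares), coloured by class, with the median and quartiles of each array as lines (solid for experimenter 2, dotted for experimenter 1). The 4 simple keratins lie above the upper quartile, *Krt15* and *Krt10* at the median, and *Krt14*, *Krt13* and *Krt5* near or below the lower quartile.

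*Krt19*, a small type I keratin that lacks most of the usual tail domain, gave the highest signal of the 9 genes, at 11.52 for experimenter 2 and 11.91 for experimenter 1. These values exceeded 98.4% of probe sets for experimenter 2 and 98.9% for experimenter 1, ranks from the top of 503 for experimenter 2 and 336 for experimenter 1. It also had the largest difference of the 9 between the arrays, -0.39, which is a 1.31-fold lower value for experimenter 2. *Krt7*, the type II keratin of glandular epithelia, measured 10.85 for experimenter 2 and 10.97 for experimenter 1, above 96.9% of probe sets for experimenter 2 and 97.3% for experimenter 1, with a difference of -0.12. *Krt7* and *Krt19* did not overlap in level: the lower value of *Krt19* was above the higher value of *Krt7*. The same held for every pair of neighbours in the order of the 9 genes by level.

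*Krt8*, the main type II keratin of simple epithelia, measured 10.20 for experimenter 2 and 10.30 for experimenter 1, above 94.3% of probe sets for experimenter 2 and 94.7% for experimenter 1, with a difference of -0.11. Its type I partner *Krt18* measured 9.48 for experimenter 2 and 9.75 for experimenter 1, above 89.3% of probe sets for experimenter 2 and 91.2% for experimenter 1, with a difference of -0.28. The gap of *Krt8* over *Krt18* was 0.72 on the array of experimenter 2 and 0.55 on that of experimenter 1, so the signals of this pair differed unequally between the arrays, by 0.17 on the log2 scale. That is less than 0.23, the SD of the difference between the arrays among probe sets of this level.

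Among the basal keratins, *Krt15* measured 6.29 for experimenter 2 and 6.30 for experimenter 1. It stood at the middle of both arrays, above 50.1% of probe sets for experimenter 2 and 49.8% for experimenter 1, and its mean of 6.298 was just under the median of all means, 6.307. *Krt14*, the type I keratin of the basal pair, measured 4.4983 for experimenter 2 and 4.4955 for experimenter 1, above 26.8% of probe sets for experimenter 2 and 26.1% for experimenter 1. Its difference of 0.0027 was the smallest of the 9. *Krt5*, its type II partner, had the lowest signal, 3.80 for experimenter 2 and 3.67 for experimenter 1, above 16.7% of probe sets for experimenter 2 and 13.5% for experimenter 1, with a difference of 0.13. *Krt5* was below *Krt14* by 0.70 for experimenter 2 and by 0.83 for experimenter 1.

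The suprabasal keratins were split in level. *Krt10*, of differentiating epidermis, measured 6.23 for experimenter 2 and 6.18 for experimenter 1, above 49.2% of probe sets for experimenter 2 and 48.2% for experimenter 1, with a difference of 0.046. *Krt13*, of internal squamous epithelia, measured 4.11 for experimenter 2 and 4.25 for experimenter 1, above 21.2% of probe sets for experimenter 2 and 22.5% for experimenter 1, with a difference of -0.15. RMA gives no detection call, so whether *Krt5*, *Krt13* and *Krt14* were above background on either array was not measured.

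The order of the 9 genes was the same on both arrays, *Krt19*, *Krt7*, *Krt8*, *Krt18*, *Krt15*, *Krt10*, *Krt14*, *Krt13* and *Krt5* from high to low. The step from the weakest simple keratin, *Krt18*, to the strongest of the others, *Krt15*, was 3.18 for experimenter 2 and 3.45 for experimenter 1, the widest step in the order. The narrowest was between *Krt15* and *Krt10*, 0.067 for experimenter 2 and 0.12 for experimenter 1, which is less than the SD of the difference between the arrays over all probe sets, 0.28. The step between *Krt14* and *Krt13* was 0.39 for experimenter 2 but 0.24, below that SD, for experimenter 1. The other steps were above the SD on both arrays. That SD describes the same probe set on both arrays, while a step compares different probe sets. It serves as a scale and does not show which steps are resolved.

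The comparison of the arrays asks how closely the experimenters' values match. All 4 simple keratins were lower on the array of experimenter 2, with a median difference of -0.20, while 3 of the 5 basal and squamous keratins were higher and 2 lower, with a median of 0.0027. Over all 31042 probe sets the median difference was -0.052, and 59.7% of the 9558 genes at or above the median level had a difference below 0, as had 58.7% of all genes. The SD of the difference among the 3105 probe sets with means from 9.58 up, where the simple keratins lie, was 0.23. *Krt19* and *Krt18* differed by more than that SD, and *Krt7* and *Krt8* by less. Among those probe sets, 7.99% had a difference at least as large in size as that of *Krt19*, 19.4% one as large as that of *Krt18*, 56.8% one as large as that of *Krt7* and 59.8% one as large as that of *Krt8*. Each of the 5 basal and squamous keratins differed by less than the SD of the probe sets of its own level, which was between 0.26 and 0.31.

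None of the 9 keratins differed by 2-fold, against 0.282% of the genes at or above the median level (27 of 9558). That filter on level was passed by 4 of the 9 keratins and by 9558 of all 14217 genes. Without the filter the count was also 0 of 9, against 0.274% of all genes, and at 1.5-fold it was 0 of the 4 that passed the filter, against 2.79%. With shares this low, a count of 0 among 9 genes is near the background. There was 1 array per experimenter, so no difference has a replicate error and no test was made.

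**Figure D2:**
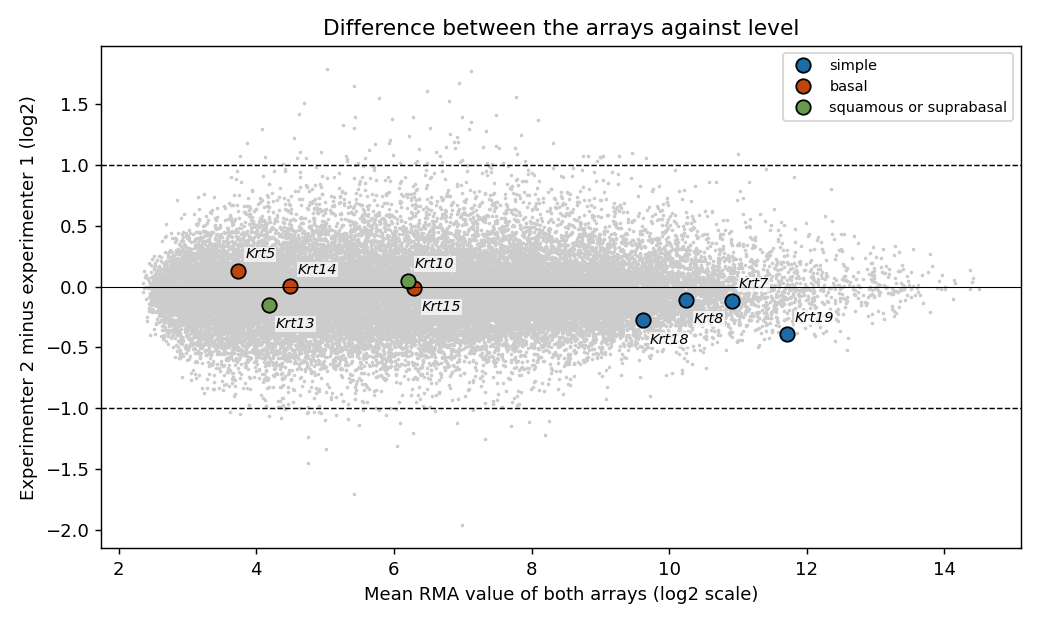
Difference of experimenter 2 minus experimenter 1 (log2) against the mean RMA value of both arrays (log2 scale) for all 31042 probe sets (grey) and the 9 keratins (coloured by class), with dashed lines at 2-fold. The 4 simple keratins lie below 0 at means from 9.61 to 11.72, with *Krt19* at -0.39, and the basal and squamous keratins lie between -0.15 and 0.13.

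The array values were also compared after 3 other scalings, each of which takes up the small offset of all probe sets. The differences of the 4 simple keratins stayed below 0 under median centring, removal of a loess trend and quantile normalization, from -0.36 to -0.38 for *Krt19* and from -0.068 to -0.074 for *Krt8*. *Krt15* changed sign under all 3 scalings, to values between 0.024 and 0.042, and its deposited difference was -0.010. *Krt5*, *Krt10* and *Krt14* stayed above 0 and *Krt13* stayed below 0 under the 3 scalings.

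**Figure D3:**
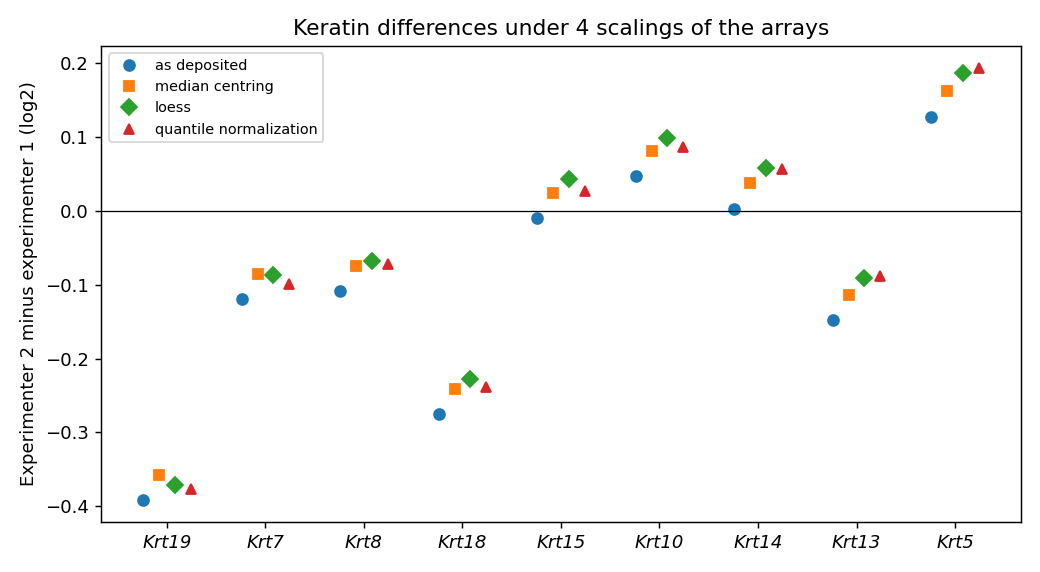
Difference of experimenter 2 minus experimenter 1 (log2) for each keratin as deposited and after median centring, removal of a loess trend and quantile normalization. The simple keratins are below 0 under all 4 scalings, and *Krt15* is at -0.010 as deposited and above 0 under the other 3.

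The array carried 16 other keratins with a single symbol. Their median signal was 4.72 for experimenter 2 and 4.82 for experimenter 1, close to that of the basal and squamous keratins. Means of at least 6.31, the median mean, were found for 2 of the 16, against 9558 of all 14217 genes. The brightest was *Krt79*, at 7.56 for experimenter 2 and 7.47 for experimenter 1, below every simple keratin examined. *Krt86*, a hair keratin, measured 6.23 for experimenter 2 and 6.52 for experimenter 1. *Krt33b*, also a hair keratin, measured 6.17 for experimenter 2 and 5.82 for experimenter 1, and *Krt71*, a keratin of the inner root sheath of hair, measured 5.70 for experimenter 2 and 5.97 for experimenter 1. Of the 16, 5 were higher and 11 lower for experimenter 2, where 58.7% of all genes were lower. The median difference of the 16 was -0.18. The differences largest in size were those of *Krt6c* and *Krt24*, at -0.66 and -0.56. *Krt6c* had 3 probe sets, all weak, of which the one with the highest mean has an identifier that marks probes shared between transcripts: that one gave -0.66, and the others gave 0.48 and 0.019, so they did not share a direction.

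Genes of the junctions that keratin filaments attach to were measured on the same arrays. Of 11 desmosome genes measured, 3 were higher and 8 lower for experimenter 2, with a median difference of -0.098. None was 2-fold apart, against 0.274% of all genes, and 58.7% of all genes had a difference below 0. *Jup*, plakoglobin, was the brightest, at 10.94 for experimenter 2 and 11.08 for experimenter 1. *Dsg2*, the desmoglein of simple epithelia, had the largest difference of the list, at 8.56 for experimenter 2 and 7.999 for experimenter 1, a difference of 0.56. *Dsg2* thus lay on the opposite side of 0 from the simple keratins, while 8 of the 11, *Jup* among them, lay on the same side.

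All 8 hemidesmosome and basement membrane genes measured had means above the median mean, which 9558 of all 14217 genes reached. Of the 8, 4 were higher and 4 lower for experimenter 2, with a median difference of -0.024. *Cd151*, a tetraspanin bound to laminin-binding integrins, measured 11.56 for experimenter 2 and 11.29 for experimenter 1. *Itgb4*, the integrin chain that links hemidesmosomes to keratin, measured 6.33 for experimenter 2 and 6.84 for experimenter 1, a difference of -0.51.

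Of 7 keratin-binding and cytolinker genes, 3 were higher and 4 lower for experimenter 2, with a median of -0.037. *Ppl*, periplakin, which joins keratin to desmosomes, measured 10.34 for experimenter 2 and 10.60 for experimenter 1. *Pnn*, pinin, found at desmosomes and in nuclear speckles, measured 9.40 for experimenter 2 and 8.82 for experimenter 1, but its 4 probe sets gave differences of 0.58, 0.12, -0.61 and 1.07. Among 9 intermediate filament genes that are no keratins, the brightest was *Vim*, vimentin of mesenchymal cells, at 13.02 for experimenter 2 and 12.92 for experimenter 1. *Prph*, peripherin of peripheral neurons, differed most, at 5.43 for experimenter 2 and 4.91 for experimenter 1, and the median difference of the list was -0.032.

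**Figure D4:**
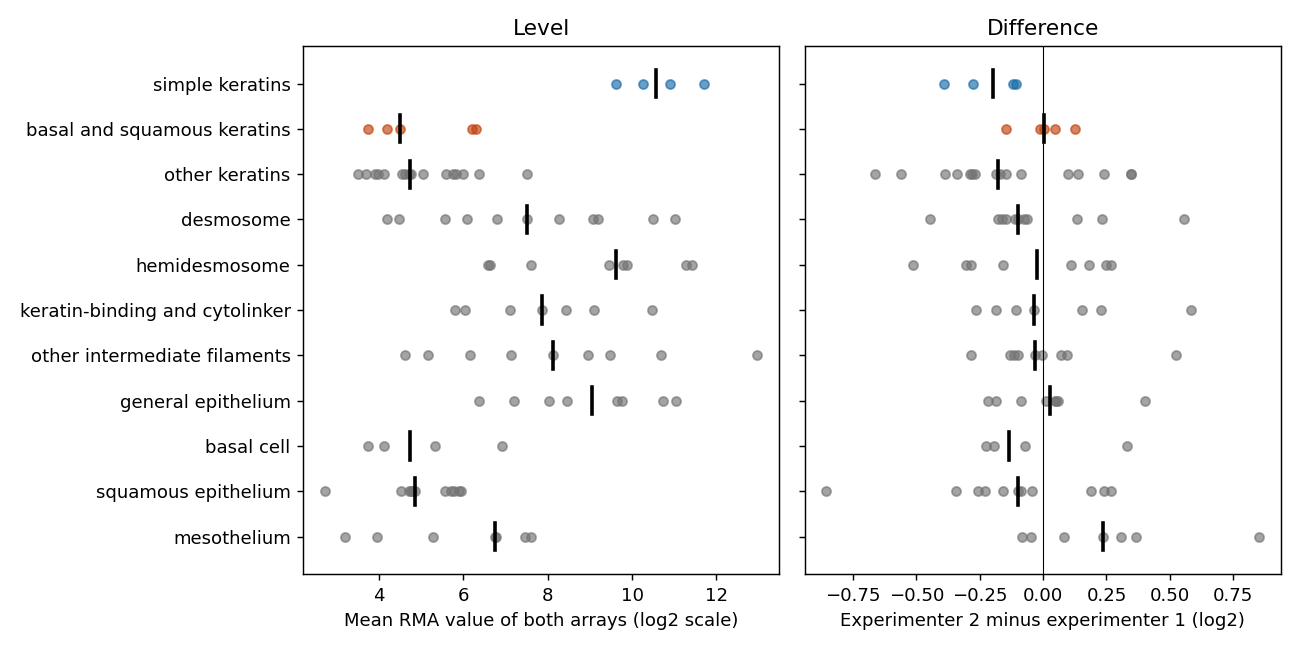
Mean RMA value of both arrays (log2 scale, left) and difference of experimenter 2 minus experimenter 1 (log2, right) for the genes of each list, with the median of a list as a black bar. The simple keratins lie at the upper end of level with all 4 differences below 0, and the other lists plotted, except for the mesothelium at 0.24, have median differences from -0.18 to 0.029.

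Markers of cell types, not all of them epithelial, were set beside the keratins. The 7 lung markers gave signal above the upper quartile of their array, except for *Foxj1* of ciliated cells for experimenter 1: *Scgb1a1* of club cells measured 14.44 for experimenter 2 and 14.37 for experimenter 1, and *Hopx* of alveolar type 1 cells measured 13.44 for experimenter 2 and 13.11 for experimenter 1. Among 8 general epithelial genes measured, 5 were higher and 3 lower for experimenter 2, where 58.7% of all genes were lower. The median difference of the 8 was 0.029, where the simple keratins had -0.20. *Epcam*, an epithelial adhesion molecule, measured 11.08 for experimenter 2 and 11.02 for experimenter 1. *Cdh1*, E-cadherin, measured 10.94 for experimenter 2 and 10.54 for experimenter 1, a difference of 0.40 in the other direction from *Krt19*.

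Of the 7 genes fixed for basal cells, 4 were measured. *Cdh3*, P-cadherin, measured 6.88 for experimenter 2 and 6.95 for experimenter 1, and was the 1 basal cell gene with a mean above the median mean. *Dlk2* measured 5.23 for experimenter 2 and 5.45 for experimenter 1. *Ngfr*, the nerve growth factor receptor used to isolate basal cells, measured 4.03 for experimenter 2 and 4.22 for experimenter 1. *Aqp3*, a water and glycerol channel, measured 3.90 for experimenter 2 and 3.57 for experimenter 1. Of these 4 basal markers, 3 gave signal below the middle of the arrays. Among the basal keratins, *Krt5* and *Krt14* were also below it, while *Krt15* lay at the middle. The median mean was reached by 9558 of all 14217 genes.

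Squamous epithelium was represented by 11 measured genes of 15, all with means under the median mean, which 9558 of all 14217 genes reached. *Tgm1*, a transglutaminase of the cornified envelope, had the highest mean of both arrays, at 5.90 for experimenter 2 and 5.98 for experimenter 1. *Tgm3*, another transglutaminase, had the largest difference, at 5.28 for experimenter 2 and 6.14 for experimenter 1. For experimenter 2, 8 of the 11 were lower, as were 58.7% of all genes. The means of this list ran from 2.72 for *Ivl* to 5.94 for *Tgm1*. *Krt13* (4.18) lay in that range, but so did the basal keratins *Krt14* (4.50) and *Krt5* (3.73). *Krt10* (6.20) and *Krt15* (6.298) lay above it.

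The mesothelium, which also makes *Krt19*, was represented by 7 measured genes. Of these, 5 were higher and 2 lower for experimenter 2, where 58.7% of all genes were lower. The median difference of the 7 was 0.24, where *Krt19* had -0.39. With the mean over each gene's probe sets, an alternative chosen after seeing the data, the median was 0.083: the brightest probe set of *Lrrn4* gave 0.24 and its others -0.24 and 0.074, and those of *Wt1* gave 0.31 and -0.093. *Msln*, mesothelin, measured 7.66 for experimenter 2 and 7.57 for experimenter 1, and *Gpm6a*, a membrane glycoprotein, measured 7.88 for experimenter 2 and 7.03 for experimenter 1. The part of mesothelial cells in the signal of *Krt19* was not tested.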

How the data were processed

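Total RNA of rat lung was hybridised to 2 arrays, 1 per experimenter. The deposited values are log2 values that the authors made with RMA, per the submitters' processing notes, which corrects background, brings the arrays to a common distribution and summarises each probe set. The sources used here do not give its version, its annotation or which arrays were normalized together, and base 2 was taken from the range of the values. Depth has no counterpart on arrays; the number of arrays limits the precision.

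Of 31099 probe sets, 57 controls were left out. The platform annotation gave 20826 of the remaining 31042 a single gene symbol, 436 several and 9780 none. Of those with a single symbol, 20758 had an Entrez identifier among the RefSeq genes of assembly GRCr8. These took the symbol given there, whether or not it differed. The brightest probe set by mean stood for a gene; each of the 9 keratins had 1, with an identifier that marks no probes shared between transcripts. Differences are experimenter 2 minus experimenter 1. In place of a test, a gene was called at a 2-fold difference with a mean at or above the median. A percentile is the share of probe sets with a lower value. Spread by level used 10 equal bins of mean level. Genes named from other lists were the brightest and the one with the largest difference in size, for other keratins the 4 brightest and the 2 largest differences, and for basal cells all measured. The members and lists were chosen with earlier results of these data known. Alternatives were 3 scalings, 2 probe set choices, a 1.5-fold threshold, other level filters and means for medians. The call rule was also run on simulated data with 200 genes changed by 1.5 on the log2 scale. That change exceeds the 2-fold threshold, so the run says little about smaller differences, and its outcome is not reported here. Python 3.11.15, numpy 2.4.6, pandas 2.3.3, statsmodels 0.14.6 and matplotlib 3.10.9 were used.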

Additional observations from a re-analysis of the deposited data

How the results depend on the processing

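No paired analysis was possible because the experimenters contributed a single array apiece, which also means that none could be dropped. A value was taken to have moved when it shifted by at least 0.28, the SD of the difference over all probe sets. Among the 9 keratins only *Krt19* differed between the arrays by more than that SD. A small difference could therefore change sign without counting as moved, as that of *Krt15* did. The median difference of the simple keratins, -0.20 as deposited, was between -0.22 and -0.16 under the other scalings and by the mean of the genes. That of the basal and squamous keratins, 0.0027 as deposited, was between 0.0035 and 0.057. The gap in level between the groups was 6.08 by medians and 5.64 by means of the genes, which counts as moved. This is because *Krt15* and *Krt10* lie well above the other 3. The count of keratins past 2-fold was 0 under each alternative run, including 1.5-fold, no filter on level and the upper 25% of levels. Both probe set choices left the 9 keratins as they were, since each has 1 probe set, so they are no check of these genes. Low signal limits *Krt5*, *Krt13* and *Krt14*, for which no detection limit was used here. With the mean over probe sets, chosen after seeing the data for the lists around the keratins, the median difference of the mesothelium list was 0.083 in place of 0.24, and that of the hemidesmosome list was 0.0097 in place of -0.024.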
